A study of Mus musculus with 12 samples.

Results

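Endothelial genes of the adrenal gland were followed in mice that carry extra copies of Ftz-F1 (Nr5a1), the gene of the nuclear receptor SF-1. The 10 genes were chosen by symbol, as identity genes of endothelial cells and receptors of vessel growth: Pecam1, Cdh5, Emcn, Plvap, Egfl7, Kdr, Flt1, Tek, Tie1 and Eng. Each was represented by 1 probe with a value on all 12 arrays, so all 10 were among the 21513 features tested, of which 17882 were named genes. The tested mice belonged to transgenic line #56, which the labels mark YAC. The group of 4 months with 2 transgene copies held the transgenic mice 1, 3 and 5, and the group of 10 days with 1 copy held mice 11, 13 and 15. Each was set against a wild-type littermate of its sex and age on 2-colour arrays, which measure 2 RNA samples on the same spots. Mice 5 and 15 were female and the other 4 male, and each pair is named here by its transgenic mouse. All transgenic mice come from 1 line, and age changes together with copy number, so effects of age and of copy number cannot be told apart.

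Endothelial cells line all blood vessels. The adrenal cortex is crossed by wide, thin-walled capillaries with pores, called fenestrae, through which steroid hormones reach the blood, and steroid-producing cells release vascular endothelial growth factor, which acts through Flt1 and Kdr. The angiopoietins act through Tek, with Tie1 as its partner receptor, and Eng is a co-receptor for the TGF-beta family.

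Every pair has 2 arrays of opposite dye orientation, called here its Cy5 array and its Cy3 array after the dye of the transgenic sample. All Cy3 arrays carry a common date in their descriptions and all Cy5 arrays another, so orientation and date cannot be told apart. Values are log2 ratios of the 2 channels, corrected for the trend of the ratio with spot signal and averaged over both arrays of a pair. The sources used here do not say whether the ratio is transgenic over wild type or the inverse, so signs are given as deposited and no value is called higher or lower in transgenic mice. The arrays carried 25344 spots, of which 4.30% to 6.59% were empty. Precision is limited by how few pairs of mice there were, 3 in each group, because the 2 arrays of a pair measure the same mice. The ratios of Nr5a1 were -0.46, 0.11 and -0.22 in pairs 1, 3 and 5 and -0.57, -0.65 and -0.79 in pairs 11, 13 and 15. They gave a mean of -0.43 (SE 0.09, adjusted p = 0.104 in limma), and the direction was not taken from them. Of the markers of adrenal steroid cells and of chromaffin cells, 11 and 9 were tested and measured on all 12 arrays. By the spot signal recovered from the ratios, 8 and 4 of them were among the brightest 10% of features, and 0 of the 10 endothelial genes were. In bulk tissue, fewer cells of a type and less RNA per cell cannot be told apart.

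None of the 10 endothelial genes passed an adjusted p of 0.05 over all 6 pairs, at 4 months, at 10 days or between the groups. Over all 6 pairs 3 ratios were positive and 7 negative, with a median of -0.06 and a range from -0.44 for Egfl7 to 0.26 for Flt1. Over all features tested the median was -0.01, and 12 features (0.0558%) passed over all 6 pairs in limma, which adjusts p-values by Benjamini-Hochberg. At an unadjusted p under 0.05 stood 2 of the 10 genes, Egfl7 and Flt1, against 15% of all features. At 4 months these were again Flt1, among 6.09% of features with a positive ratio at that p, and Egfl7, among 6.21% with a negative ratio. The share in either direction was 12.3%. At 10 days they were 3 of the 10, against 8.34% of all features: Pecam1, among 4.25% with a positive ratio, and Emcn and Egfl7, among 4.09% with a negative ratio. An ordinary linear model without moderation also called 0 of the 10.

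**Figure D1:**
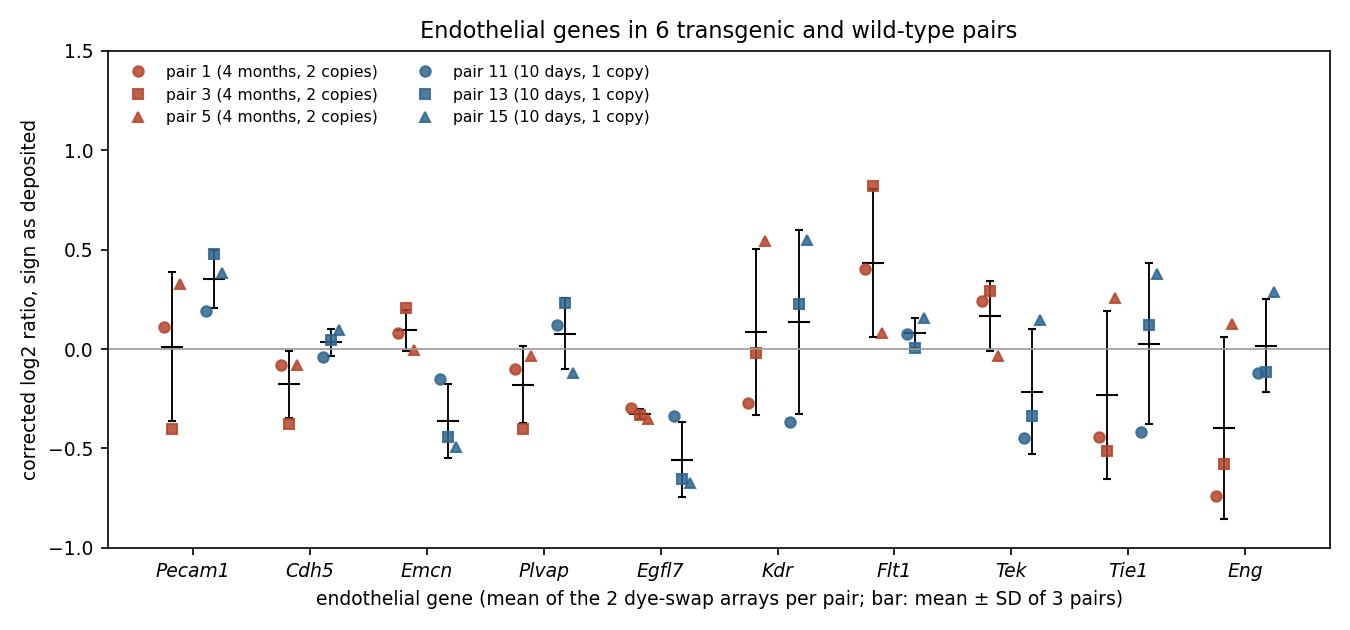
Corrected log2 ratio (vertical axis, sign as deposited) of the 10 endothelial genes (horizontal axis) in the 3 pairs of 4 months with 2 copies (red, left) and the 3 pairs of 10 days with 1 copy (blue, right), with the mean and SD of each group. Egfl7 lies below 0 and Flt1 above 0 in all 6 pairs, and the other 8 genes have values of both signs.

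Egfl7 encodes a protein that endothelial cells secrete into the matrix around growing vessels. The gene lies on chromosome 2 from 26581083 to 26592682 (GRCm38.p6). Its ratios were -0.30, -0.33 and -0.35 in pairs 1, 3 and 5 at 4 months, against -0.34, -0.65 and -0.68 in pairs 11, 13 and 15 at 10 days. It was thus negative in 6 of 6 pairs, as were 4.75% of the features measured in all pairs, and pair 11 lay within the range of the 4-month pairs. The mean over all 6 pairs was -0.44 (SE 0.07, 95% interval -0.61 to -0.27, adjusted p = 0.0882 in limma). At 4 months it was -0.33 ± 0.03 (SD, n = 3) and at 10 days -0.56 ± 0.19 (SD, n = 3). A microRNA gene, Mir126a, lies inside Egfl7 on the same strand. Its mature product, from RefSeq, is shown because it shares the transcript's locus, with the seed (bases 2 to 8) in capitals, and the arrays' values say nothing of it.
mmu-miR-126a-3p (chr2:26591402-26591423, plus strand): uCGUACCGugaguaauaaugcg

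The Egfl7 value differed between the dye orientations. The 6 Cy5 arrays lay from -1.10 to -0.47 and the 6 Cy3 arrays from -0.42 to 0.44. The Cy5 array was below the Cy3 array in 6 of 6 pairs, by 0.74 ± 0.43 on average (SD, n = 6), and 8.43% of features had a larger mean gap in size. With the Cy5 arrays alone Egfl7 was at -0.81 (adjusted p = 0.0049 in limma), with the Cy3 arrays alone at -0.07 (adjusted p = 0.747). A fit of all 12 arrays with a dye term and the pair as a random block called it at -0.44 (adjusted p = 0.0198 in limma). That fit called 777 features in all, against 12 in the fit on pair values. It takes both arrays of a pair as values, so its p-value does not measure the spread between pairs alone.

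Pecam1 and Cdh5 encode adhesion proteins that hold neighbouring endothelial cells together. Pecam1, on chromosome 11 from 106654213 to 106715281, was at 0.11, -0.40 and 0.33 in pairs 1, 3 and 5, against 0.19, 0.48 and 0.38 in pairs 11, 13 and 15. All 10-day pairs were positive, and pair 3 was the single negative value. The 10-day mean was 0.35 ± 0.15 (SD, n = 3, adjusted p = 0.582 in limma) and the mean over all 6 pairs 0.18 (95% interval -0.06 to 0.42). Cdh5, on chromosome 8 from 104101613 to 104144504, was at -0.08, -0.38 and -0.08 in pairs 1, 3 and 5, against -0.04, 0.05 and 0.10 in pairs 11, 13 and 15. All 4-month values lay below all 10-day values, with means of -0.18 ± 0.17 and 0.03 ± 0.07 (SD, n = 3 each). The difference of -0.21 had a 95% interval from -0.55 to 0.13 (adjusted p = 0.933 in limma), and without pair 3 it was -0.11. The groups were apart on the Cy5 arrays (difference of means -0.35) and overlapped on the Cy3 arrays, at -0.31 to 0.07 for 4 months and -0.19 to 0.04 for 10 days (difference -0.08). The share of all features with the age groups apart within an orientation was not counted.

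Emcn encodes endomucin, a sialomucin on the surface of capillary and venous endothelium, and Plvap forms the diaphragms of fenestrae. Emcn, on chromosome 3 from 137341062 to 137431069, was at 0.08, 0.20 and -0.00 in pairs 1, 3 and 5, against -0.15, -0.44 and -0.49 in pairs 11, 13 and 15. The groups did not overlap, with 0.09 ± 0.10 at 4 months and -0.36 ± 0.18 at 10 days (SD, n = 3 each). The difference of 0.46 had a 95% interval from 0.10 to 0.81 and an unadjusted p of 0.018. Adjusted over all features in limma, p was 0.933. Emcn was the only one of the 10 genes at an unadjusted p under 0.05 here, against 4.56% of all features, 2.17% positive and 2.39% negative. Its Cy3 arrays were apart, at 0.20 to 0.66 for 4 months and -0.48 to 0.05 for 10 days. Its Cy5 arrays overlapped, at -0.51 to -0.07 for 4 months and -0.64 to -0.35 for 10 days. In the pair values 2 of the 10 genes, Cdh5 and Emcn, stood without overlap between the age groups, against 10.4% of the features measured in all pairs. Emcn was the one with the 4-month values above, as for 5.06% of those features. Plvap, on chromosome 8 from 71497753 to 71511806, was at -0.10, -0.40 and -0.04 in pairs 1, 3 and 5, against 0.12, 0.23 and -0.12 in pairs 11, 13 and 15. Its 95% interval over all 6 pairs was -0.24 to 0.14. Its Cy5 arrays were apart, at -0.31 to -0.19 for 4 months and 0.06 to 0.35 for 10 days. Its Cy3 arrays overlapped (difference of means -0.10). Its spots were dim: 4.17% of the features tested had a lower signal.

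Flt1 and Kdr encode the receptors of vascular endothelial growth factor, of which Flt1 binds it tightly and signals weakly while Kdr carries the growth signal. Flt1, on chromosome 5 from 147561604 to 147726438, was at 0.40, 0.82 and 0.08 in pairs 1, 3 and 5, against 0.08, 0.01 and 0.16 in pairs 11, 13 and 15. It was positive in 6 of 6 pairs, as were 5.67% of features, and pairs 1 and 3 exceeded all others. The mean was 0.43 ± 0.37 at 4 months and 0.08 ± 0.07 at 10 days (SD, n = 3 each), and 0.26 over all 6 pairs (SE 0.10, 95% interval 0.02 to 0.49, adjusted p = 0.294 in limma). The 10-day values average arrays of opposite sign in every pair, 0.46 to 0.72 on the Cy5 arrays and -0.44 to -0.35 on the Cy3 arrays. The 4-month values were at -0.09 to 1.18 on the Cy3 arrays, above all 10-day values (difference of means 0.87). On the Cy5 arrays they were at 0.25 to 0.50 and overlapped the 10-day values (difference -0.16). The sign of the age difference of Flt1 thus changed with the orientation. Without pair 3 the 4-month mean was 0.24. Kdr, on chromosome 5 from 75932827 to 75979072, was at -0.27, -0.02 and 0.54 in pairs 1, 3 and 5, against -0.37, 0.23 and 0.55 in pairs 11, 13 and 15. Both groups spanned 0, and the mean over all 6 pairs was 0.11 (95% interval -0.22 to 0.44).

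Tek encodes the angiopoietin receptor Tie2, and Tie1 its partner. Tek, on chromosome 4 from 94739086 to 94874976, was at 0.24, 0.29 and -0.04 in pairs 1, 3 and 5, against -0.45, -0.34 and 0.14 in pairs 11, 13 and 15. The groups overlapped through pairs 5 and 15, and the difference of 0.38 had a 95% interval from -0.07 to 0.83 (adjusted p = 0.933 in limma). Tie1, on chromosome 4 from 118471191 to 118489849, was at -0.44, -0.51 and 0.26 in pairs 1, 3 and 5, against -0.42, 0.12 and 0.38 in pairs 11, 13 and 15. On the Cy5 arrays its groups were apart, at -0.97 to -0.06 for 4 months and -0.04 to 0.25 for 10 days (difference of means -0.72). On the Cy3 arrays they overlapped, with a difference of the other sign (0.20). Eng, on chromosome 2 from 32646595 to 32682669, was at -0.74, -0.58 and 0.12 in pairs 1, 3 and 5, against -0.12, -0.12 and 0.29 in pairs 11, 13 and 15. Pairs 1 and 3 were the lowest of the 6 for both genes. Eng averaged -0.40 ± 0.46 at 4 months (SD, n = 3, adjusted p = 0.414 in limma) and 0.02 ± 0.23 at 10 days (SD, n = 3). The 4-month mean was -0.66 without pair 5 and -0.23 without pair 1. Its 2 arrays differed more than those of any other of the 10 genes. The Cy5 arrays spanned -1.29 to -0.10 and the Cy3 arrays -0.18 to 0.67, a mean gap of -0.85 ± 0.19 (SD, n = 6) that 5.39% of features exceeded in size.

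**Figure D2:**
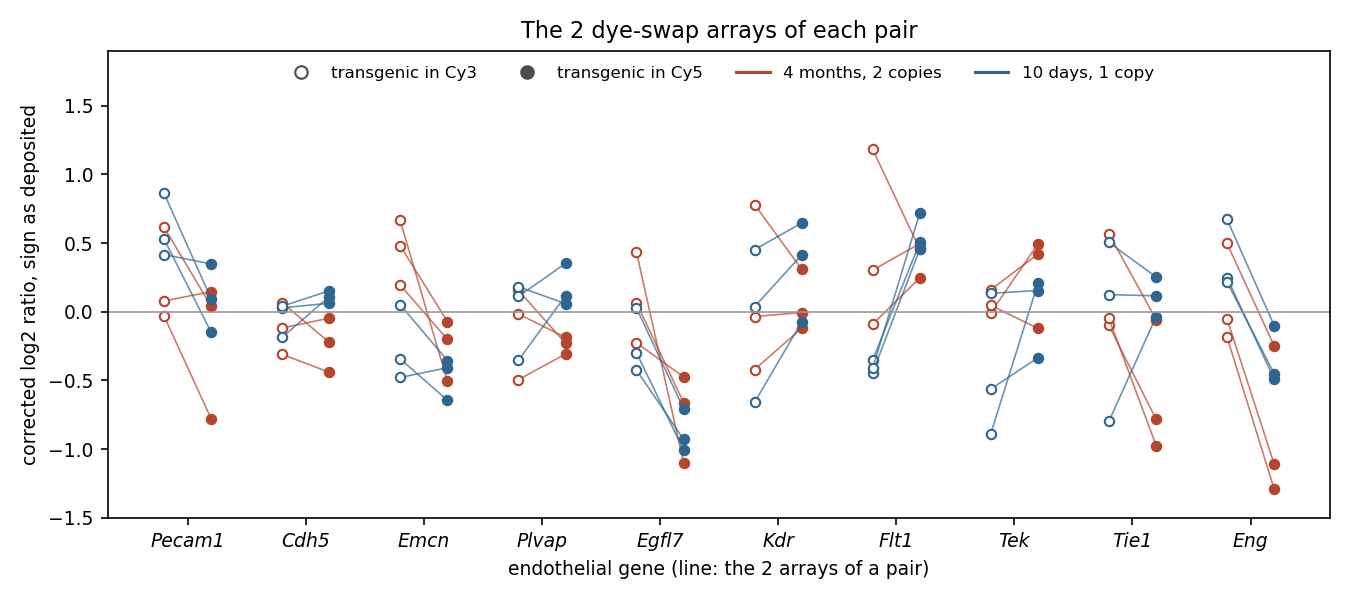
Corrected log2 ratio (vertical axis, sign as deposited) on each of the 12 arrays for the 10 endothelial genes (horizontal axis), with the array of the transgenic sample in Cy3 (open, left) joined to that in Cy5 (filled, right) of the same pair. Lines of Egfl7 and Eng run down in all 6 pairs, and those of Flt1 run up in all but pair 3.

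Kdr, Tie1 and Eng were positive in both female pairs, as were Pecam1 and Flt1. Kdr was at 0.54 and 0.55 in the female pairs 5 and 15, against -0.37 to 0.23 in the 4 male pairs, Tie1 at 0.26 and 0.38 against -0.51 to 0.12, and Eng at 0.12 and 0.29 against -0.74 to -0.12. For these 3 genes the sexes did not overlap, as for 14.2% of the features measured in all pairs, and female values were the higher ones for 7.11%. In a fit with a sex term the female minus male difference was 0.65 for Kdr (95% interval 0.17 to 1.14), 0.63 for Tie1 (0.17 to 1.09) and 0.59 for Eng (0.20 to 0.98). Their unadjusted p-values in limma were 0.0157, 0.0142 and 0.00859, and the adjusted ones 0.811, 0.798 and 0.798. At an unadjusted p under 0.05 stood these 3 of the 10 genes, against 5.76% of all features, and no feature passed after adjustment. The other 7 genes had intervals that held 0, from -0.71 to 0.29 for Flt1 at the low end and from -0.24 to 0.77 for Pecam1 at the high end.

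The female mean of these 3 genes was above the male mean in each dye orientation. For Eng the female arrays lay above all male arrays, both on Cy5 arrays (-0.25 and -0.10 against at most -0.45) and on Cy3 arrays (0.50 and 0.67 against at most 0.25). For Kdr and Tie1 the sexes were apart on the Cy3 arrays and overlapped on the Cy5 arrays, where the differences of means were 0.42 and 0.52. Leaving out 1 pair at a time gave differences from 0.53 to 0.79 for Kdr, 0.53 to 0.76 for Tie1 and 0.41 to 0.78 for Eng. These 3 genes were picked by the means of these same arrays, so neither comparison is a separate test of them. The share of all features with the sexes apart within an orientation was not counted. The 8 adipocyte markers tested had a median of 0.83 in the female pair 15 and of 0.18 in the female pair 5, against -0.19 to 0.03 in the male pairs. The 6 erythroid markers tested also kept the sexes apart, with medians of 0.15 and 0.28 in the female pairs 5 and 15, against -0.12, -0.03, -0.28 and -0.92 in the male pairs 1, 3, 11 and 13. Among them Hba-a1, a globin gene, had a female minus male difference of 1.52 (unadjusted p = 0.00408, adjusted p = 0.797 in limma). Of the same markers, Klf1 differed by 0.19 and Epb42 by -0.17 (adjusted p = 0.966 and 0.93 in limma). Epb42 ran the other way, at -0.22 and -0.21 in the female pairs 5 and 15, below all male pairs. The macrophage complement genes C1qc and C1qb had differences of 0.69 and 0.82 (adjusted p = 0.798 and 0.819 in limma). C1qb had no value in pair 1, and the macrophage gene Aif1 differed by 0.18 (adjusted p = 0.976 in limma). The macrophage median did not keep the sexes apart. It was -0.71 and 0.62 in the female pairs, against -0.20, -1.20, -0.11 and -0.10 in the male pairs 1, 3, 11 and 13. The 11 pericyte and smooth muscle genes of the vessel wall also kept the sexes apart. Their medians were 0.08 and 0.17 in the female pairs, against -0.17, -0.25, 0.04 and 0.02 in the male pairs 1, 3, 11 and 13. At an unadjusted p under 0.05 for sex in limma stood 5 of the 8 adipocyte, 2 of the 6 erythroid and 0 of the 11 vessel wall genes. The share of all features was 5.76%. Medians of the adipocyte, erythroid and vessel wall genes thus moved with sex beside Kdr, Tie1 and Eng. The part of these cells in the sex difference was not tested.

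**Figure D3:**
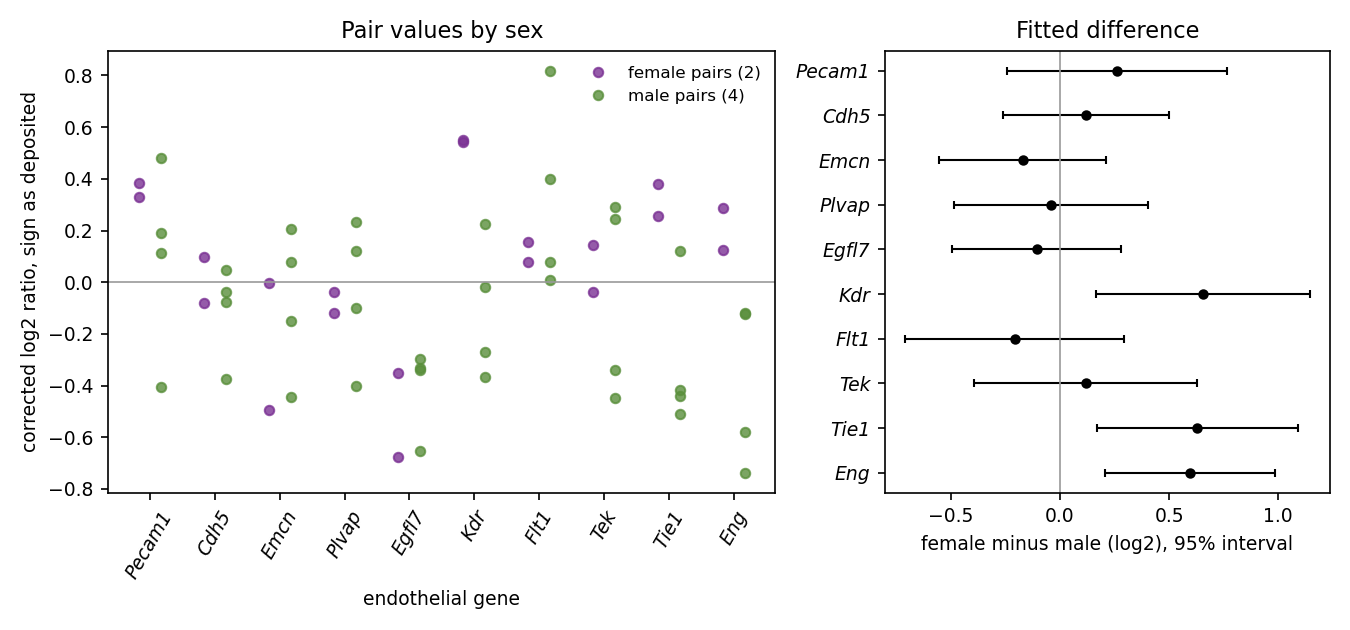
Left, corrected log2 ratio (vertical axis, sign as deposited) of the 10 endothelial genes in the 2 female pairs (purple, left) and the 4 male pairs (green, right). Right, the fitted female minus male difference on the log2 scale with its 95% interval, which excludes 0 for Kdr, Tie1 and Eng before adjustment over all features.

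The starts of Kdr, Tie1 and Eng were compared because these are the 3 genes without overlap between the sexes. Shown are the 250 bases before an annotated start of each gene, from RefSeq on GRCm38.p6, written along the gene's strand. The Kdr window lies inside the span given above for that gene, so the start used is not its outermost. Capitals mark matches, on either strand, to CAAGGNCA, a site of the kind SF-1 binds, or to CCGGAA, a core of ETS factor sites. These motifs do not overlap.
Kdr (chr5:75978456-75978705, minus strand): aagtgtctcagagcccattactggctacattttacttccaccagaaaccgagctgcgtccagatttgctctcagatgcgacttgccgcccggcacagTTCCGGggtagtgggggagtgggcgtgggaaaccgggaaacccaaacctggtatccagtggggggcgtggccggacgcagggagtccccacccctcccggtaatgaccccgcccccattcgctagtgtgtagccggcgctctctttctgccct
Tie1 (chr4:118489850-118490099, minus strand): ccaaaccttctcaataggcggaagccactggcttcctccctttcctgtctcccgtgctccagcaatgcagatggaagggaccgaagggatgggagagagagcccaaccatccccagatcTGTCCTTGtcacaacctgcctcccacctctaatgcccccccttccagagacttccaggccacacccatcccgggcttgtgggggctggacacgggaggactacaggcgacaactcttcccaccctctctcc
Eng (chr2:32646345-32646594, plus strand): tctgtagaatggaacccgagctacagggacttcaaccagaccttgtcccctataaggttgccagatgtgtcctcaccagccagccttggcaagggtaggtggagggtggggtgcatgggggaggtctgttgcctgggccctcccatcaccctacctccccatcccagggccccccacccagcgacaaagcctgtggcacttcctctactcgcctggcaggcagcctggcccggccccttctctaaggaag
Tie1 held 1 match to the SF-1 type of site and Kdr 1 match to the ETS core. Eng held neither. Windows were at hand for 7 of the 10 genes, with 3 alternative starts for Egfl7, and in these 9 windows each motif was found once. Of the 32851 windows of all genes, 5.53% held the SF-1 type of site and 12% the ETS core.

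The 10 genes varied among themselves. Over the 6 pairs, 21 of the 45 correlations between them were above 0, with a median Pearson r of -0.13. Pecam1 and Cdh5 gave 0.95, Emcn and Egfl7 0.92 and Kdr and Tie1 0.92, while Pecam1 and Flt1 gave -0.95. The genes share the arrays and the dye correction, and 6 points carry little weight. The median of the 10 genes was -0.09, -0.35 and 0.04 in pairs 1, 3 and 5, against -0.14, 0.03 and 0.15 in pairs 11, 13 and 15, with a mean of -0.06 ± 0.18 (SD, n = 6). Of 17038 other named genes, Slc1a5, Cdc7, Ctsk, Atp13a2 and Dock10 followed these 6 medians most closely, with Pearson r of 0.99 for each.

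Other genes of vessels gave medians near 0 as well, and none of them passed after adjustment in any comparison. Of 35 other identity, junction and blood contact genes, 10 were positive and 25 negative over all 6 pairs, with a median of -0.10. At an unadjusted p under 0.05 stood 1 positive and 3 negative, against 7.52% and 7.45% of all features. Vcam1, an adhesion receptor for leukocytes, was at -0.40 over all pairs (adjusted p = 0.169 in limma), with -0.70 ± 0.39 at 4 months and -0.09 ± 0.17 at 10 days (SD, n = 3 each). Nostrin, which binds the endothelial nitric oxide synthase, was at -0.30 (adjusted p = 0.223). Gpihbp1, which carries lipoprotein lipase to the capillary surface, was at 0.44 ± 0.22 at 4 months and -0.25 ± 0.41 at 10 days (SD, n = 3 each).

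Among 17 secreted vessel growth factors, 9 were positive and 8 negative, with a median of 0.03. Vegfd, a ligand of the lymphatic receptor Flt4, was at 1.03, 0.65 and 0.89 in pairs 1, 3 and 5, against 0.58, 0.00 and 0.60 in pairs 11, 13 and 15. It was positive in 6 of 6 pairs, as were 5.67% of the features measured in all pairs. Its mean was 0.63 (adjusted p = 0.0882 in limma). The related ligand Vegfc was at -0.57 ± 0.25 at 4 months and -0.03 ± 0.38 at 10 days (SD, n = 3 each, adjusted p of the difference 0.933 in limma). Among 18 other receptors, 6 were positive and 12 negative. Bmpr2, a BMP receptor of endothelium, was at 0.35 (adjusted p = 0.11 in limma). It was positive in 6 of 6 pairs, as were 5.67% of the features measured in all pairs. Nrp1, a co-receptor of Kdr, was at -0.34 (adjusted p = 0.274 in limma). Ednrb and Calcrl, receptors of endothelin and adrenomedullin, had 4-month minus 10-day differences of 0.39 and -0.42 (adjusted p = 0.933 each in limma).

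Of 21 transcription factors of endothelium, 4 were positive and 17 negative, with a median of -0.04. Klf2, which responds to blood flow, was at -0.77, -1.32 and -0.80 in pairs 1, 3 and 5, against -0.79, 0.03 and 0.43 in pairs 11, 13 and 15. All 4-month values of Klf2 were negative, and the 10-day values spanned 0 (adjusted p of the difference 0.933 in limma). The median of the macrophage markers was -0.81 at 4 months and 0.01 at 10 days, and its part in the values of Klf2, Lyl1 and Vcam1 was not tested. Gata2, shared by endothelium and chromaffin cells, was at 0.42 over all pairs (adjusted p = 0.251). Tal1 and Lyl1, related factors of endothelium and blood cells, differed between 4 months and 10 days by 0.63 and -0.88 (adjusted p = 0.933 each in limma). Of 12 Notch and arteriovenous genes, 4 were positive and 8 negative. The receptor gene Notch1 was at -0.43 and the ligand gene Dll1 at -0.20 over all pairs (adjusted p = 0.273 and 0.279 in limma). Both were negative in 6 of 6 pairs, as were 4.75% of the features measured in all pairs. The spot of Dll1 was dim, with a signal of 62.2 against 108 for Plvap. The ligand gene Jag2 and the Notch target Hes1 had differences between the age groups of 0.23 and -0.21.

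The wall around the endothelium was set beside it. Of 11 pericyte and smooth muscle genes, 3 were positive and 8 negative, with a median of -0.09. Cspg4, which encodes the pericyte proteoglycan NG2, was at 0.45 (adjusted p = 0.099 in limma). It was positive in 6 of 6 pairs, as were 5.67% of the features measured in all pairs. Mylk, a smooth muscle kinase gene, was at -0.28. Pdgfrb, the receptor through which endothelium recruits pericytes, was at -0.46 ± 0.64 at 4 months and 0.23 ± 0.11 at 10 days (SD, n = 3 each). Notch3 was at -0.21 ± 0.65 and 0.32 ± 0.14. Of 6 lymphatic vessel genes, 3 were positive and 3 negative. In pair 3 Lyve1 was at -1.88 and Ccl21a at -1.57, against -0.04 to 0.26 for Lyve1 and 0.04 to 0.80 for Ccl21a in the other pairs. Reln and Pdpn were at -0.11 and 0.12 over all pairs.

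Markers of other cells moved in some of the same pairs. In pair 3 the 8 lymphocyte markers had a median of -1.86, against -0.13 to 0.08 in the other 5 pairs, and the 9 macrophage markers, all negative over all pairs, were at -1.20. The macrophage markers also separated the age groups, with medians of -0.20, -1.20 and -0.71 in pairs 1, 3 and 5, against -0.11, -0.10 and 0.62 in pairs 11, 13 and 15. At an unadjusted p under 0.05 stood 7 of the 9 at 4 months, all negative, against 6.21% of all features with a negative ratio. For the age difference they were 5 of the 9, also negative, against 2.39% of all features. After adjustment in limma 0 passed. In pair 11 the 8 hepatocyte markers were at 1.77, against -0.00 to 0.35 elsewhere. The cortical steroid cell markers ranged from -0.54 in pair 11 to 0.58 in pair 3, the chromaffin markers from -0.06 in pair 11 to 0.77 in pair 3, and the erythroid markers from -0.92 in pair 13 to 0.28 in pair 15. Pair 3 held the lowest value of Pecam1, Cdh5, Plvap and Tie1 and the highest of Emcn, Flt1 and Tek. The part of these cells in the endothelial values was not tested. Without pair 3 the means over all pairs were 0.29 for Pecam1, -0.02 for Cdh5 and 0.16 for Flt1, and without pair 5 they were 0.10 for Pecam1 and -0.0046 for Kdr. Kdr was at 0.01 without pair 15 and at 0.24 without pair 11. None of the 10 genes passed in limma without any single pair.

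**Figure D4:**
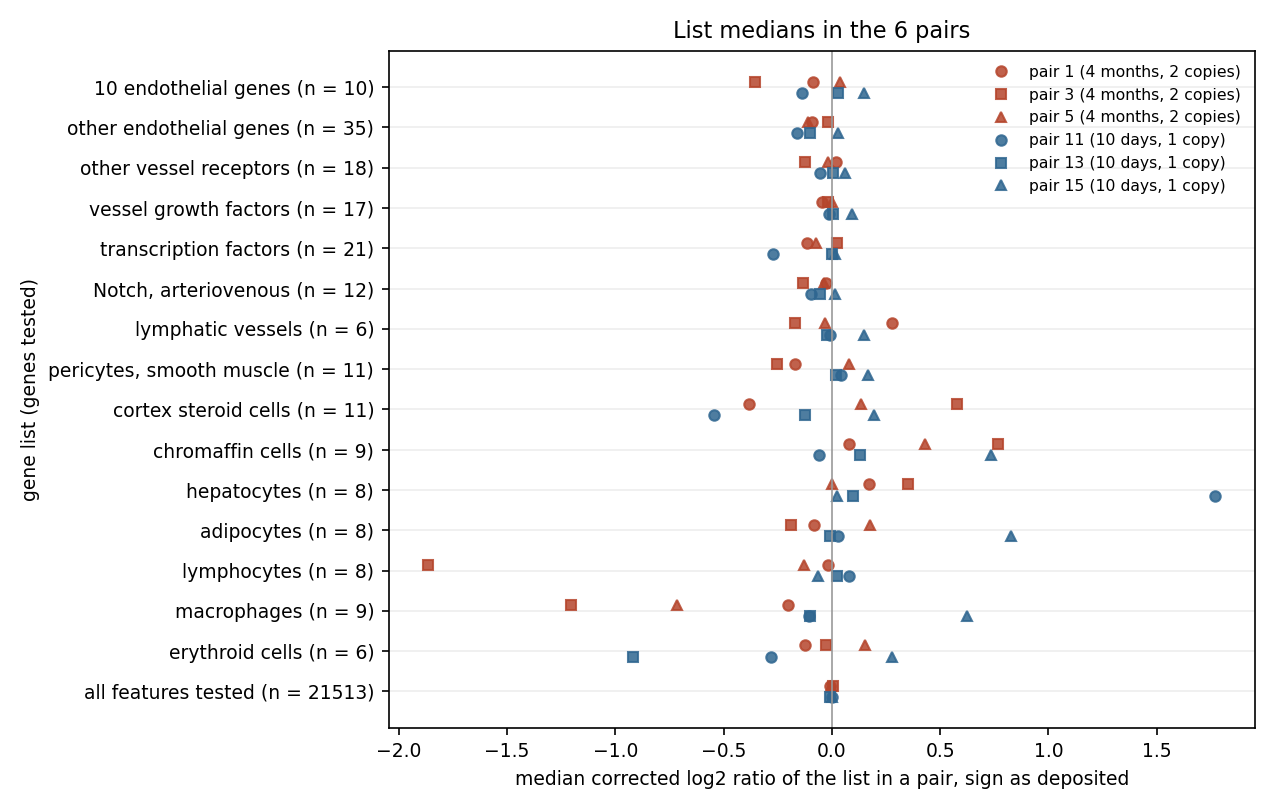
Median corrected log2 ratio (horizontal axis, sign as deposited) of each gene list in the 3 pairs of 4 months with 2 copies (red, upper) and the 3 pairs of 10 days with 1 copy (blue, lower). The medians of the 10 endothelial genes lie from -0.35 to 0.15, while the hepatocyte markers of pair 11 and the lymphocyte markers of pair 3 lie at 1.77 and -1.86.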

How the data were processed

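The authors deposited a log2 ratio of the 2 channels for each of 25344 spots on 12 arrays. Scanner, image analysis and normalization: not given in the sources used here. On the 6 Cy3 arrays, named like the Cy5 arrays by the transgenic sample's dye, 2 raised to a value was a ratio of whole numbers up to 65535 for 100% of spots (relative tolerance 1e-13), which gives the base and a signal for 24641 probes. Array medians were 0.74 to 1.50 for Cy5 arrays and -0.68 to -0.22 for Cy3 arrays. A loess fit of ratio on probe signal (span 0.3) was therefore subtracted on each array. Deviations from the mean of the same dye orientation correlated at 0.24 to 0.68 within a pair and at -0.28 to 0.12 over 30 combinations across pairs, so no array's sign was changed.

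Probes were named by the platform's annotation (21082 with a single gene, 30 with several, 4232 with none), of which 20456 matched a RefSeq gene, and probes of a gene were averaged. Features with a value in at least 2 of 3 pairs of each group entered a limma fit of group means (limma 3.58.1, R 4.3.3), on 4 residual and 3.85 prior degrees of freedom. All tests were two-sided at an adjusted p of 0.05 (Benjamini-Hochberg). The procedure was tested on simulated data, and no outcome of that test is given here. The 10 genes and all lists were chosen with earlier results of these data known. From each other vessel list the text names the 2 genes with the smallest p over all pairs and the 2 with the smallest p of the age difference. Whether the littermate pairs share litters is not stated. In the fits on pair values, p-values measure the spread between pairs. The fit of 12 arrays used a common correlation of 0.30 within pairs for all features, so its spread also holds that between the 2 arrays of a pair. Alternatives changed the dye correction, the arrays and pairs used, the model, the filters and the choice of probe.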

Additional observations from a re-analysis of the deposited data

Results flagged for a closer look

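The test for a lone extreme value used here (Dixon) sets apart about 5% of sets of 6 values by chance. It set apart pair 3 in the lymphocyte markers (median -1.86), pair 11 in the hepatocyte markers (1.77) and pair 15 in the adipocyte markers (0.83). Pair 15 was also set apart in the vessel growth factors, at 0.0943, where the other 5 pairs lay between -0.05 and 0.00. No value of the 10 endothelial genes was set apart in this way. Eng was positive in both female pairs and negative in all 4 male pairs, with a female minus male difference of 0.59 (unadjusted p = 0.00859, adjusted p = 0.798 in limma).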

How the results depend on the processing

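None of the 10 endothelial genes passed in any comparison when arrays were centred on their median, with a loess span of 0.6, in the ordinary linear model, with sex added, in groups fitted on their own, among features measured on all 12 arrays, with the brightest probe, without the dimmest features (which removed Plvap), without any single pair, or without pairs 3, 11 and 15 together (chosen after seeing the data). With the values as deposited 2 of the 10 passed over all pairs (Pecam1 at 0.51 and Flt1 at 0.53), beside 5964 of 21513 features. At 4 months 1 of the 10 passed (Flt1), beside 2548 features. The mean of the pair medians was then 0.19. With only the Cy5 arrays 4 of the 10 passed over all pairs (Egfl7, Eng, Flt1 and Emcn), beside 3439 of 21610 features. At 4 months 2 of the 10 passed there, beside 915 features, and at 10 days 1, beside 222. With only the Cy3 arrays none of the 10 passed, while 1411 of 21845 features did over all pairs. With 12 arrays and a random block for the pair 1 of the 10 passed over all pairs, beside 777 of 21513 features. A probe's dye effect does not cancel in a single orientation. The deposited values average both orientations but keep the unequal offsets of the arrays, and the cause of the calls there was not tested.

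Counts of all features past the threshold over all pairs were 12 in the fit reported, 0 with median centring, 5964 as deposited, 3439 with Cy5 arrays, 1411 with Cy3 arrays, 1 in the ordinary model, 0 with sex added, 777 with the random block, and 0 without pairs 3, 11 and 15. At 4 months they were 2548 as deposited, 915 with Cy5 arrays, 288 with Cy3 arrays and 289 with the random block, at 10 days 18, 222, 31 and 75, and for the age difference 16 as deposited, each against 0 in the fit reported. Leaving out single pairs gave 0 to 15 over all pairs (15 without pair 5, 4 without pair 11 and 0 without pairs 1, 3, 13 or 15), 0 to 5 at 4 months (5 without pair 5) and 0 to 1 at 10 days (1 without pair 11).

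Signal over background is not known, which limits what can be said of dim probes such as those of Plvap, Nostrin and Dll1.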
